A study of Mus musculus with 12 samples.

Results

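Cathepsins are the proteases that take apart proteins inside lysosomes, and this account follows 8 of their genes, Ctsk, Ctsb, Ctsl, Ctss, Ctsd, Ctsh, Ctsz and Ctsc, in fibroblasts sorted from mouse back skin. The genes were chosen by name, and every probe set annotated to exactly 1 symbol, that of a member, was used. That gave 18 probe sets for 8 genes, out of 45101 probe sets on the array and 18193 genes with a probe set of 1 symbol. Where a gene had several, the brightest on average over the 12 arrays stood for it.

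The 12 arrays fell into 3 groups of 4: fibroblasts of inflamed skin of InvEE mice, tumour-associated fibroblasts of InvEE mice (titled Pap), and fibroblasts of normal skin of wild-type (WT) mice. All mice were males aged 7 weeks, and all 3 groups carried the PDGFRα-H2B-eGFP allele, in which the gene of the PDGF receptor alpha, a fibroblast receptor, drives a green fluorescent histone. In InvEE mice the involucrin promoter, a promoter of differentiating epidermal cells, drives activated MEK1, a kinase, so the transgene acts in the epidermis and not in the fibroblasts measured. Whether arrays of 1 group stem from separate animals is not stated in the labels, and p-values therefore reflect only how far these samples spread, part of which may be technical. Loss of cells of a type and less RNA per cell cannot be told apart in such bulk samples.

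Cathepsins are made as inactive precursors, tagged with mannose 6-phosphate in the Golgi, carried by sorting receptors to the acidic endosome and activated there by cleavage. In connective tissue, fibroblasts take up collagen fragments through receptors and digest them in lysosomes, and secreted cathepsins can also cut matrix outside the cell. Cystatins, small cytosolic or secreted proteins, block the cysteine cathepsins. The transcription factor TFEB turns on many lysosomal genes through a short element with the core CACGTG.

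The sort's marker Pdgfra was well above the dim range in every group, at 10.62 ± 0.22 in inflamed, 10.87 ± 0.35 in tumour-associated and 9.94 ± 0.49 in normal arrays (mean ± SD of log2 values, n = 4 each). Col1a1, a chain of type I collagen, stood at 14.30 in inflamed, 14.48 in tumour-associated and 14.45 in normal arrays. Of 10 fibroblast markers, none was dim in any group, and 1 was called higher in tumour-associated than in normal (Pdgfra) and 2 than in inflamed fibroblasts (Pdgfrb and Dpt). These calls were lost on leaving out any 1 of 7 arrays for Pdgfra, any 1 of 3 for Pdgfrb and any 1 of 11 for Dpt. The 12 hybridisation spike probe sets were lower in the inflamed arrays, at 7.92 to 8.68, than in the tumour-associated arrays, at 9.83 to 12.57, or in the normal arrays, at 9.27 to 12.29. The 3′ minus 5′ gap of the Gapdh control probe sets, which reflects RNA length after amplification, averaged 2.15 ± 0.83 in inflamed, 2.80 ± 0.66 in tumour-associated and 1.84 ± 0.30 in normal arrays. Within each group it was widest in inflamed array 3 (3.37), tumour-associated array 4 (3.76) and normal array 4 (2.28). Those 3 arrays held the lowest value of their group for 5, 4 and 4 of the 8 cathepsins, and the highest for 1, 0 and 2. The same count was not taken over all genes. Because every inflamed array had a lower spike level than all others, a fit that includes spike level cannot fully tell it apart from the inflamed group. The part of spike level and RNA length in the results below was not tested beyond that fit and those that leave these arrays out. Every tumour-associated array had a wider Gapdh gap (2.29 to 3.76) than every normal array (1.59 to 2.28). Fits that leave arrays out therefore cannot tell RNA length apart from the difference between these groups.

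Ctsb, which codes for cathepsin B, had the smallest adjusted p of the 8 in 2 of the 3 comparisons: it was higher in tumour-associated fibroblasts than in both other groups. Ctsl, coding for cathepsin L, was higher in tumour-associated than in inflamed fibroblasts, by a margin that barely passed the test. None of the 8 differed between inflamed and normal fibroblasts at an adjusted p under 0.05 in limma, although 7 of the 8 had a lower mean in the inflamed group. The 3 comparisons share arrays, so their values are not independent of each other.

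**Figure D1:**
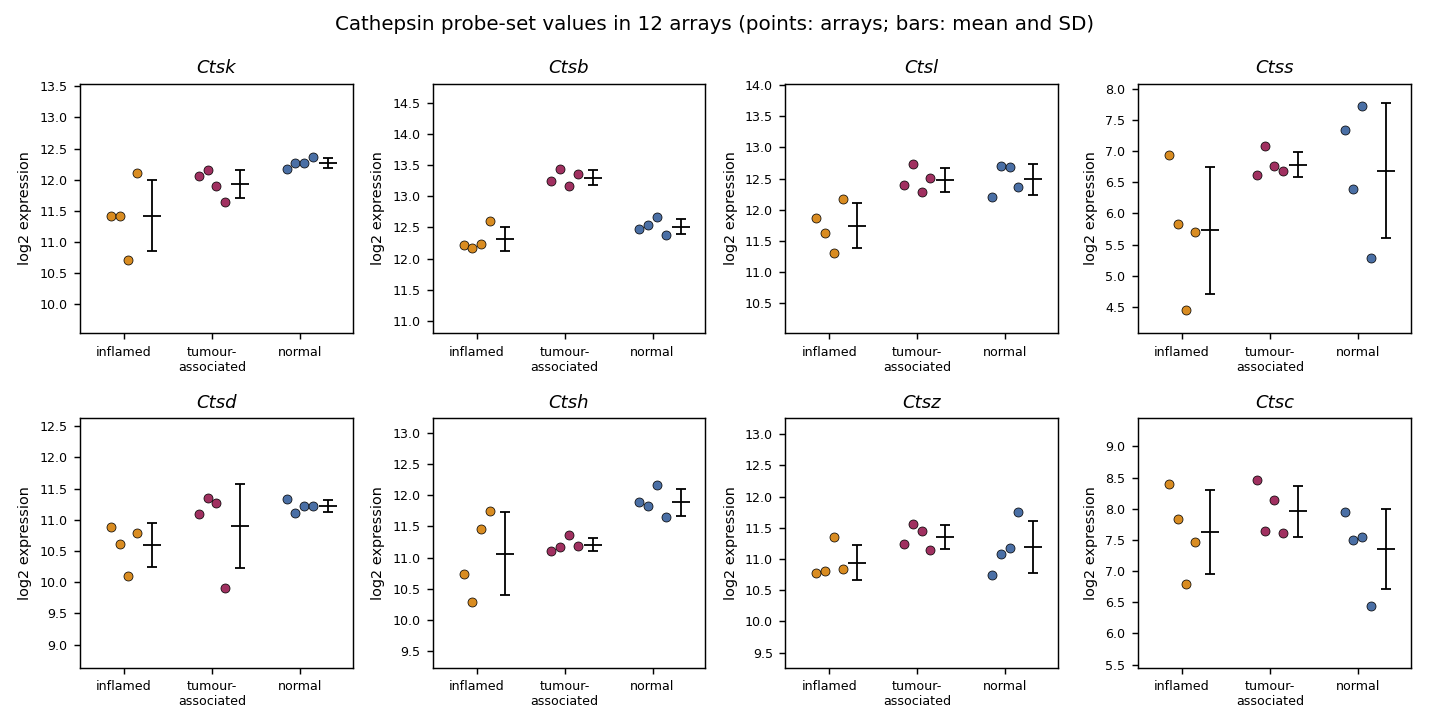
Normalized log2 values of the 8 cathepsins in each array (points, left to right replicates 1 to 4) for the inflamed, tumour-associated and normal groups, with the group mean and SD as bars beside the points (n = 4 arrays per group). Each panel has its own log2 axis, all of the same length; all 4 tumour-associated arrays of Ctsb lie between 13.17 and 13.44, above every other array.

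In inflamed against normal fibroblasts, 0 of 8 cathepsins were called, against 97 of 18193 genes (0.533%), of which 47 were higher (0.258%) and 50 lower (0.275%). At an unadjusted p under 0.05, 3 of the 8 were counted (Ctsk, Ctsl and Ctsh), against 2837 of all genes. For 3 members (Ctsk, Ctsl and Ctsd) the inflamed and normal arrays did not overlap, as for 15.3% of all genes. The median difference of the 8 was −0.68 on the log2 scale and that of all genes −0.09. Of all genes, 60.6% had a lower mean in the inflamed group.

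In tumour-associated against normal fibroblasts, 1 member was called, Ctsb, and it was higher. Of all genes, 1756 were called (9.65%), 883 of them higher (4.85%) and 873 lower (4.80%). The arrays of the groups did not overlap for Ctsk, Ctsb and Ctsh, as for 13.8% of all genes. The members were split, 4 with a higher and 4 with a lower mean, 1 of the lower ones being Ctsl, which turned to 0.23 when arrays were scaled by ribosomal protein genes. Their median was 0.05, beside 0.04 for all genes.

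In tumour-associated against inflamed fibroblasts, 2 members were called, Ctsb and Ctsl, both higher, out of 1221 genes called (6.71%), 668 of them higher (3.67%) and 553 lower (3.04%). The same 2 were the members whose arrays did not overlap, as for 21.1% of all genes. All 8 had a higher mean in the tumour-associated group, as did 60.7% of all genes. The median difference of the 8 was 0.46, against 0.12 for all genes.

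**Figure D2:**
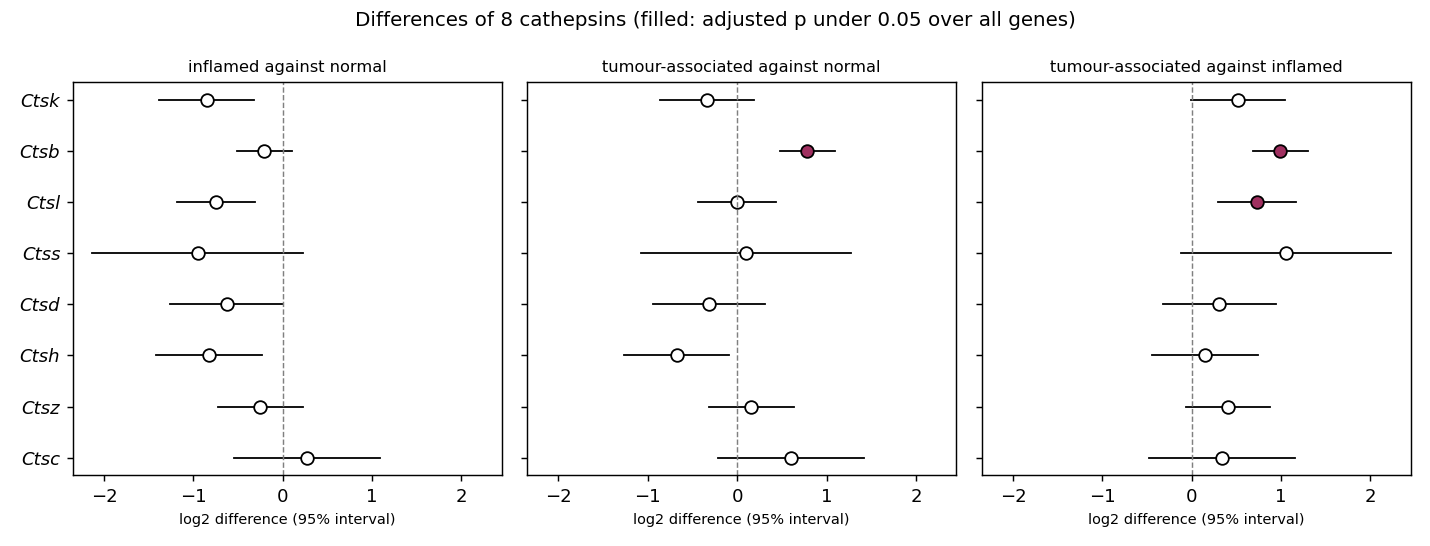
Log2 differences of the 8 cathepsins in each comparison (circles, with 95% confidence intervals from the fit to all 12 arrays); filled circles had an adjusted p under 0.05 over all 18193 genes. Ctsb is filled at 0.79 and 0.99 in the tumour-associated comparisons and Ctsl at 0.74 against inflamed, while no circle is filled for inflamed against normal.

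Cathepsin B is an endopeptidase that can also trim pairs of residues from protein ends, and it is a known collagen and proteoglycan degrader when secreted. Ctsb measured 13.24, 13.44, 13.17 and 13.36 in the tumour-associated arrays. It measured 12.23, 12.18, 12.24 and 12.60 in the inflamed arrays and 12.47, 12.54, 12.67 and 12.38 in the normal arrays. All 4 tumour-associated arrays lay above all 8 others, while the inflamed and normal arrays overlapped. In limma, Ctsb was higher by 0.79 ± 0.14 (log2 difference ± SE, 1.73-fold, adjusted p = 0.00413) in tumour-associated than in normal fibroblasts, and by 0.99 ± 0.14 (1.99-fold, adjusted p = 0.00152) than in inflamed fibroblasts. In a fit of only the 2 groups compared with the array number as a block, an alternative added after seeing the data, the first was not called (adjusted p = 0.0563) and the second was (adjusted p = 0.0441). By unadjusted p Ctsb ranked 488 of all genes in the first and 149 in the second comparison. The inflamed group was lower than normal by 0.21, with a 95% interval from −0.51 to 0.10 that spans 0 (adjusted p = 0.489).

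The other 4 probe sets of Ctsb did not all move alike. In tumour-associated against inflamed fibroblasts, 1417491_at was higher by 1.37 ± 0.22 (adjusted p over all probe sets = 0.00362), and 1448732_at and 1417492_at, with differences of 1.00 and 0.69, were not called (adjusted p = 0.0971 and 0.209). Against normal fibroblasts these 3 had differences of 0.43, 0.58 and 0.14, none of them called. The dimmest, 1444987_at, with a mean of 7.33 over the 12 arrays, was lower in tumour-associated fibroblasts, by 0.88 against inflamed and 0.80 against normal (adjusted p = 0.0355 and 0.0402). Thus 4 of the 5 probe sets had a higher mean in the tumour-associated group in both comparisons.

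**Figure D3:**
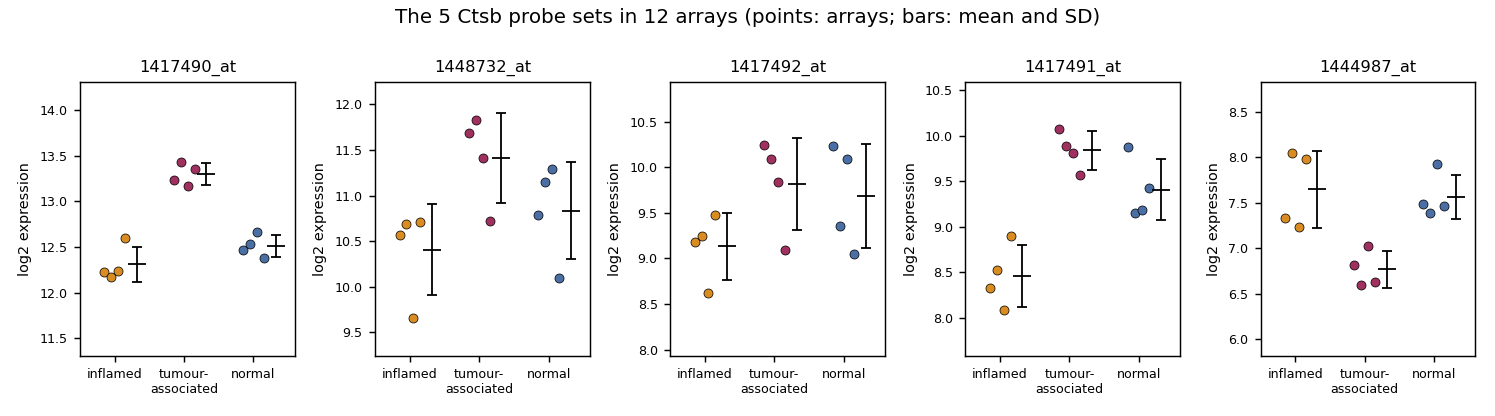
Normalized log2 values of the 5 Ctsb probe sets in the 12 arrays (points), with group means and SD (bars, n = 4 arrays per group), in order of their mean, brightest on the left. The tumour-associated arrays are highest on average in 4 panels and lowest in the panel of 1444987_at, where they lie between 6.60 and 7.03.

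Cathepsin L is an endopeptidase of lysosomes and of secreted fluid. Ctsl measured 12.39, 12.74, 12.29 and 12.51 in the tumour-associated arrays. It measured 11.87, 11.63, 11.31 and 12.17 in the inflamed arrays and 12.20, 12.71, 12.68 and 12.36 in the normal arrays. The inflamed arrays lay below all others, and the tumour-associated and normal arrays overlapped. Ctsl was higher by 0.74 ± 0.20 (1.66-fold, adjusted p = 0.0485 in limma) in tumour-associated than in inflamed fibroblasts. The call was lost on leaving out any 1 array other than inflamed array 4 or normal array 4 (differences 0.59 to 0.80, adjusted p 0.0515 to 0.132). Against normal, the inflamed group differed by −0.74 ± 0.20 (adjusted p = 0.120), and the tumour-associated group by −0.01 ± 0.20 (adjusted p = 0.990). Its other probe set, 1457724_at, was far dimmer, at a mean of 6.84, and was called in no comparison.

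Cathepsin K is the collagenase of osteoclasts, able to cut the collagen triple helix, and is also made by dermal fibroblasts. Ctsk measured 11.42, 11.42, 10.72 and 12.12 in the inflamed arrays, 12.05, 12.15, 11.90 and 11.64 in the tumour-associated arrays, and 12.17, 12.28, 12.27 and 12.36 in the normal arrays. The normal arrays were tightly grouped (SD 0.08) and lay above all others, whereas the inflamed arrays spread widely (SD 0.57). The inflamed group differed from normal by −0.85 ± 0.24 (adjusted p = 0.137, 95% interval −1.38 to −0.33). Without inflamed array 4, the highest of its group, the difference was −1.08 and was called (adjusted p = 0.0479). Tumour-associated fibroblasts differed from inflamed by 0.52 (adjusted p = 0.197) and from normal by −0.34 (adjusted p = 0.470).

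Cathepsin S keeps its activity at neutral pH and is best known from antigen-presenting cells, where it trims the invariant chain of MHC class II. Ctss was the dimmest member, with an inflamed mean of 5.73 ± 1.02, under the limit of 6.162 below which 40% of probe-set means lay. It measured 6.94, 5.84, 4.44 and 5.70 in the inflamed arrays, 6.62, 7.08, 6.77 and 6.67 in the tumour-associated arrays, and 7.33, 6.39, 7.72 and 5.29 in the normal arrays. The groups overlapped, and no comparison passed the test. Its 95% intervals were wide, from −0.12 to 2.23 in tumour-associated against inflamed and from −1.08 to 1.28 in tumour-associated against normal fibroblasts.

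Cathepsin D is the main aspartic protease of lysosomes. Ctsd measured 10.88, 10.62, 10.10 and 10.79 in the inflamed arrays, 11.09, 11.35, 11.27 and 9.91 in the tumour-associated arrays, and 11.34, 11.10, 11.22 and 11.22 in the normal arrays. The inflamed arrays lay below all normal arrays, and tumour-associated array 4 lay below all 11 others. The differences from normal were −0.63 ± 0.29 in inflamed (adjusted p = 0.323) and −0.32 ± 0.29 in tumour-associated fibroblasts (adjusted p = 0.587). Without tumour-associated array 4 the second was 0.02.

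Cathepsin H removes residues from the amino end of peptides. Ctsh measured 10.75, 10.30, 11.46 and 11.76 in the inflamed arrays, 11.11, 11.17, 11.37 and 11.19 in the tumour-associated arrays, and 11.89, 11.83, 12.17 and 11.66 in the normal arrays. Every tumour-associated array lay below every normal array, while inflamed array 4 reached into the normal range. The differences from normal were −0.68 ± 0.27 in tumour-associated (adjusted p = 0.155) and −0.82 ± 0.27 in inflamed fibroblasts (adjusted p = 0.188). Its other probe set, 1443814_x_at, had differences of −0.82 and −0.91, not called either.

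Cathepsin Z trims residues from the carboxyl end, and cathepsin C removes pairs of residues from the amino end and activates proteases stored in the granules of immune cells. Ctsz lay between 10.77 and 11.35 in the inflamed, 11.15 and 11.56 in the tumour-associated, and 10.75 and 11.76 in the normal arrays. Ctsc lay between 6.79 and 8.40 in the inflamed, 7.61 and 8.46 in the tumour-associated, and 6.44 and 7.94 in the normal arrays. For both genes the 3 groups overlapped, and none of their 6 probe sets was called in any comparison. The largest of their 6 differences was 0.61 ± 0.37 for Ctsc in tumour-associated against normal fibroblasts (adjusted p = 0.384, 95% interval −0.21 to 1.42). Ctsc was the only member with a higher mean in inflamed than in normal fibroblasts, by 0.27 ± 0.37 (adjusted p = 0.731).

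Across the 12 arrays, after each gene was centred on its own mean, the closest pair of members was Ctsk and Ctsl, with a root mean square difference of 0.249, followed by Ctsk and Ctsd (0.326) and Ctsb and Ctsl (0.368). Of all genes, the patterns most like that of Ctsb (SD 0.466) were those of Gm13238, Tmsb4x and Parva, at 0.145, 0.149 and 0.171. Tmsb4x codes for the actin-binding peptide thymosin beta 4 and Parva for an adhesion protein linked to integrins. Those most like Ctsl (SD 0.442) were Glmp, coding for a glycosylated lysosomal membrane protein, at 0.201, and 2310026I22Rik and Ess2 at 0.212 and 0.227.

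Start-site sequence was at hand for 6 of the 8 members, from RefSeq on build GRCm38.p6; Ctsb and Ctsh had none in the table used. The 3 shown belong to Ctsk, Ctsl and Ctsd, whose inflamed arrays all lay below all normal arrays. Each is the 250 bases before the annotated start, 5′ to 3′ on the strand of the gene, with the core CACGTG in capitals. They cover chr3:95498960-95499209 on the plus strand, chr13:64370521-64370770 on the minus strand and chr7:142387828-142388077 on the minus strand.
Ctsk: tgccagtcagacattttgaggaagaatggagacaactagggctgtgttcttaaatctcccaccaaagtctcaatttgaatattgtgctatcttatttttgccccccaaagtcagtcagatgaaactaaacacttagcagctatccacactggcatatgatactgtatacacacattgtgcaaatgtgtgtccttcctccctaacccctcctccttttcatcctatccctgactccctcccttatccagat
Ctsl: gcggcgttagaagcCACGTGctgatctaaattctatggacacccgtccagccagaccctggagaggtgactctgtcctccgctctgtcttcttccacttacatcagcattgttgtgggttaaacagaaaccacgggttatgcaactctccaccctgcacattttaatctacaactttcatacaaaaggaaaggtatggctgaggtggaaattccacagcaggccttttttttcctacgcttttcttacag
Ctsd: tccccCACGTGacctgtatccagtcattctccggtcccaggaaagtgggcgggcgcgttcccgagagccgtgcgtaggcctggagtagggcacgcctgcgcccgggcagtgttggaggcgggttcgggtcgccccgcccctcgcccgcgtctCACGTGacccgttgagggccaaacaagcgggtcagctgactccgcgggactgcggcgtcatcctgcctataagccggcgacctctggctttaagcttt
Ctsd held 2 cores, 245 and 98 bases before the start, of which 1 was part of the longer TCACGTGA, and Ctsl held 1 core 236 bases before the start. Ctsk held none, and neither did Ctss, Ctsz or Ctsc. CACGTG reads the same on both strands, and TCACGTGA contains it. Over all 32851 windows of this length the core was found in 1978 (6.02%) and the longer form in 258 (0.785%). A match describes the letters and not a bound site. Tfeb itself measured 7.14, 7.00, 7.10 and 7.13 in the inflamed arrays, 7.76, 7.50, 7.39 and 6.75 in the tumour-associated arrays, and 8.10, 7.80, 7.66 and 7.70 in the normal arrays. The inflamed arrays lay below all normal arrays, and the difference of −0.72 ± 0.20 was not called (adjusted p = 0.126 in limma). These groups did not overlap, in either direction, for 15.3% of all genes. Tumour-associated fibroblasts differed from normal by −0.46 ± 0.20, not called either (adjusted p = 0.188 in limma). A part of Tfeb in the cathepsin values was not tested.

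The receptors that sort cathepsins differed from each other. M6pr, the smaller mannose 6-phosphate receptor, measured 10.10, 10.15, 10.06 and 10.65 in the tumour-associated arrays. It measured 9.14, 9.30, 9.38 and 9.18 in the inflamed arrays and 8.36, 8.80, 9.34 and 9.13 in the normal arrays. The tumour-associated arrays lay above all others. M6pr was higher there by 1.33 ± 0.21 against normal (adjusted p = 0.00204) and by 0.99 ± 0.21 against inflamed (adjusted p = 0.0171). The second call was lost without inflamed array 1 or 4 (0.95 and 0.96, adjusted p = 0.0603 and 0.0513). Igf2r, the larger receptor, was called in no comparison (−0.34 in inflamed and −0.28 in tumour-associated against normal). Of 13 sorting genes, 1 was called higher and 0 lower in tumour-associated against normal, and 1 each way against inflamed. The lower one was Sorl1 (−0.76), a sorting receptor, whose other probe sets were not called (−0.13 and −0.30). The Sorl1 call was lost on leaving out any 1 of 6 arrays, and its tumour-associated mean of 5.885 was dim. The other probe set of M6pr was called against normal (1.24) and not against inflamed (0.67).

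Uptake of collagen precedes its digestion. Mrc2, the endocytic collagen receptor Endo180, measured 10.47, 10.49, 10.49 and 10.66 in the tumour-associated, 9.10, 9.16, 10.28 and 9.66 in the inflamed, and 9.82, 10.01, 9.94 and 10.02 in the normal arrays. The tumour-associated arrays lay above all others. Mrc2 was higher by 0.98 ± 0.23 in tumour-associated than in inflamed fibroblasts (adjusted p = 0.0242), a call lost without inflamed array 1, 2 or 4 (0.83, 0.85 and 1.01). Against normal the difference of 0.58 was not called (adjusted p = 0.139). Its other probe set differed by 0.67 from inflamed and −0.22 from normal, neither called (adjusted p over all probe sets = 0.0692 and 0.583). Against normal, 3 of 14 measured uptake genes were called higher in tumour-associated fibroblasts and 2 lower; against inflamed, 4 were higher and 1 lower. They included Mfge8, a bridging protein for collagen and cell debris, higher by 1.85 and 1.81, and the collagen-binding integrin chain Itga1, higher by 2.91 and 1.95. Lrp1, a scavenger receptor, was lower by 0.79 and Dpp4 by 1.98 than in normal, and the collagen-binding kinase Ddr1 lower by 0.97 than in inflamed. The Ddr1 call was lost on leaving out any 1 of 8 arrays and held in 10 of 26 alternatives, and its other probe sets, none called, had differences from −1.73 to 0.43.

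Among 30 measured other lysosomal hydrolases, 1 was called higher and 3 lower in tumour-associated against normal fibroblasts, and 5 higher and 2 lower against inflamed. Their medians were 0.21 and 0.31, beside 0.04 and 0.12 for all genes. A further fit left out the array of widest Gapdh gap in each group, a choice made after seeing the data. Its counts were 1 and 5 against normal and 11 and 1 against inflamed. Lgmn, coding for legumain, a protease that processes several cathepsins, measured 7.52, 8.25, 8.57 and 7.73 in the tumour-associated, 6.52, 6.36, 6.95 and 6.54 in the inflamed, and 6.56, 8.11, 6.83 and 6.28 in the normal arrays. It was higher by 1.42 ± 0.36 in tumour-associated than in inflamed fibroblasts (adjusted p = 0.0354), a call lost on leaving out any 1 of 6 arrays, and the difference of 1.07 against normal was not called (adjusted p = 0.0880). Pla2g15, a lysosomal phospholipase, was higher by 1.30 against normal and 1.12 against inflamed, but on its other probe set by 0.11 and 0.29, not called. Dnase2a, a lysosomal DNase, was lower by 1.31 and 1.63. Cpq was lower by 1.57 against normal, while its other probe sets were not called (−0.74 and −0.33). Ctsa, a serine carboxypeptidase named as a cathepsin, was higher by 0.82 ± 0.19 against inflamed (adjusted p = 0.0214), a call lost without inflamed array 1 or 2 or tumour-associated array 1 (0.82, 0.83 and 0.71), and its other probe set went the other way, by −0.97 against inflamed (not called) and −1.27 against normal (called, adjusted p over all probe sets = 0.0348). It was the only called gene of the 16 other cathepsin and cathepsin-like genes in that comparison, and 12 of the 16 were dim in all groups. Against normal, 1 was called lower, the cathepsin-like Tinag, which was dim in all 3 groups, so no size is given, and whose call was lost on leaving out any 1 of 10 arrays.

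**Figure D4:**
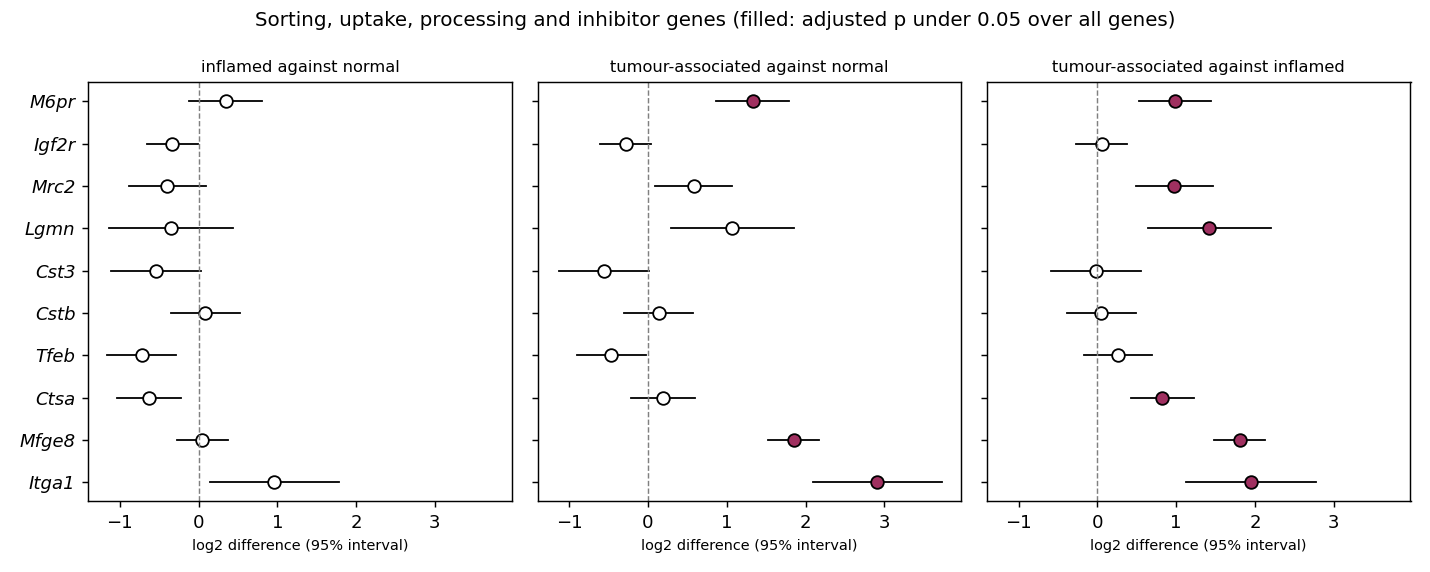
Log2 differences with 95% confidence intervals of 10 genes for sorting (M6pr, Igf2r), uptake (Mrc2, Mfge8, Itga1), processing (Lgmn), inhibition (Cst3, Cstb), regulation (Tfeb) and the related Ctsa, in each comparison of the fit to all 12 arrays; filled circles had an adjusted p under 0.05 over all genes. No gene is filled for inflamed against normal, 3 are filled for tumour-associated against normal and 6 for tumour-associated against inflamed.

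Of 15 measured inhibitors, 1 was called in any comparison: Serpinb1a, coding for an inhibitor of neutrophil serine proteases and cathepsin G, lower by 1.94 in tumour-associated than in normal fibroblasts (adjusted p = 0.00137). Its tumour-associated mean of 5.56 was dim, so the size rests partly on dim values. Its other probe set differed there by −0.95 (called). Cst3, the secreted cystatin C, differed from normal by −0.55 in inflamed and −0.56 in tumour-associated fibroblasts (adjusted p = 0.339 and 0.234), and Cstb by 0.09 and 0.14. Of 16 lysosomal membrane proteins, Slc17a5, which exports sialic acid, was higher by 1.37 and Tpcn1, a cation channel of endosomes and lysosomes, lower by 1.35 in tumour-associated against normal fibroblasts. Of the other probe sets of Tpcn1, 1 was called against normal (−1.17) and 1 was not (−0.32). Against inflamed, Ostm1 was higher by 1.39 and Tpcn1 lower by 0.93. Of 15 proton pump subunits, 0 were higher and 2 lower against normal, Atp6v0b by 0.69 and Atp6v0a1 by 1.64, calls lost on leaving out any 1 of 3 and any 1 of 9 arrays and made on no other probe set of either gene, and 0 were called against inflamed (2 at an unadjusted p under 0.05). In inflamed against normal fibroblasts, limma called 0 of the 119 other genes of the cathepsin, hydrolase, membrane, pump, sorting, uptake and inhibitor lists, with 26 at an unadjusted p under 0.05. Of 11 genes of osteoclast-type collagenolysis, the integrin chain Itgb3 was higher by 2.36 and 2.43 and the gelatinase Mmp9 by 1.75 and 1.94 in tumour-associated against normal and inflamed fibroblasts.

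Several cathepsins are also made in quantity by macrophages. Of 17 macrophage markers, 7 were dim in all groups, among them Adgre1 (4.22 in inflamed, 4.51 in tumour-associated and 4.67 in normal arrays) and Ptprc (5.09, 5.69 and 5.56). Their summed level, log2 of the sum of linear values, ran from 10.90 to 11.86 in inflamed, 10.77 to 11.64 in tumour-associated and 12.10 to 12.51 in normal arrays, with Csf1r (10.49, 9.62 and 11.77) the largest. Of the 17, 1 was called, Csf1r, lower by 2.14 in tumour-associated than in normal fibroblasts (adjusted p = 0.0103). Other probe sets of Csf1r differed there by −1.5 (called) and by −0.48 (not called, adjusted p over all probe sets = 0.309 in limma). The median difference of the 17 was 0.02 in tumour-associated against normal, 0.25 in tumour-associated against inflamed and −0.26 in inflamed against normal fibroblasts. Markers of keratinocytes, summed, ran from 11.78 to 12.96 in inflamed, 10.96 to 12.82 in tumour-associated and 10.72 to 11.02 in normal arrays. Of 14, 2 were called higher in inflamed and 3 in tumour-associated than in normal fibroblasts, and 1 lower in tumour-associated than in inflamed. Krt15 was higher by 1.89 in inflamed than in normal, a call lost without inflamed array 1 or 2 or normal array 1 or 2. Neutrophil markers ran from 9.35 to 9.67 in tumour-associated, 8.91 to 9.10 in inflamed and 8.94 to 9.22 in normal arrays, with S100a9 and Mpo called higher in tumour-associated than in normal and in inflamed arrays. Both genes were dim in the normal and inflamed groups, so the sizes of these differences rest on dim values. The Mpo call against normal and the S100a9 call against inflamed were lost on leaving out any 1 of 8 and any 1 of 6 arrays. Pericyte markers, summed, ran from 10.21 to 10.84 in tumour-associated, 10.92 to 11.36 in inflamed and 11.97 to 12.07 in normal arrays. Kcnj8 was the largest of them in normal arrays, at a mean of 11.08, against 7.07 in tumour-associated arrays. Of 9, 2 were called lower in tumour-associated than in normal and 3 lower than in inflamed arrays, led by Kcnj8 (−4.01 and −2.14). The Abcc9 call against normal (−2.12) was lost on leaving out any 1 of 7 arrays, while its other probe sets were called (−4.36 and −3.25). The Notch3 call against inflamed (−1.31) was lost on leaving out any 1 of 5 arrays, and its other probe set was not called (−0.85). Over the 9, the median difference was −0.51 in tumour-associated against normal, −0.14 in tumour-associated against inflamed and −0.05 in inflamed against normal fibroblasts. Rgs5 and Mcam had a higher mean in tumour-associated than in normal arrays, and the rest a lower one. The part of these cells in the cathepsin values was not tested.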

How the data were processed

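Sorted fibroblasts were profiled on Affymetrix arrays. Per the labels' protocols, RNA from fluorescent dermal cells was amplified in 1 round and labelled with biotin. The values deposited by the authors were on a log2 scale, from 2.08 to 14.96. The submitters' processing notes name limma with no version. For background correction, summarization and normalization the method is not given in the sources used.

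Quartiles of the 12 arrays differed by 0.284 and 0.276, over a limit of 0.1, so arrays were quantile normalized. Of 45101 probe sets, 34945 had 1 symbol, giving 18193 genes. One model with 3 group means was fitted in limma 3.58.1 (R 4.3.3). Tests were two-sided, and calls were made at 0.05 after Benjamini-Hochberg adjustment over all genes. The procedure was tested on simulated data. The number of arrays limits the precision.

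The members and the 22 gene lists were chosen with earlier results of these data known. Named genes were the members, Pdgfra, Col1a1, Mrc2, Cst3, Cstb, Lgmn, Igf2r, M6pr and Tfeb, the 3 nearest patterns to each called member, and up to 2 called genes per list, direction and comparison. Lists of dendritic, T and NK, mast, endothelial and Schwann cell markers held 0 called genes in limma (7 in inflamed against normal, 6 in tumour-associated against normal and 7 in tumour-associated against inflamed of 44 at an unadjusted p under 0.05). The lists of MHC class II, interferon-gamma and lysosomal regulator genes held 1 called gene each. These were H2-Ab1 (−1.60) and Flcn (−0.81) in tumour-associated against normal, and Gbp3 (2.47) in tumour-associated against inflamed fibroblasts. Each call was lost on leaving out any 1 of 4 to 7 arrays. The other probe sets of H2-Ab1 (−0.36 and −0.70) and of Flcn (−0.29 and −0.02) were not called.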

Additional observations from a re-analysis of the deposited data

Results flagged for a closer look

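Among the 24 groups of 4 arrays tested (8 genes in 3 groups), 2 held an array that stood apart from the other 3 by more than Dixon's 95% limit, where chance gives about 1 in 20 groups. Ctsb was highest in inflamed array 4, at 12.60, with the other inflamed arrays between 12.18 and 12.24. Ctsz was highest in inflamed array 3, at 11.35, with the others between 10.77 and 10.84. No cause was tested.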

How the results depend on the processing

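Across 26 alternatives, 2 of them added after seeing the data, Ctsb stayed called in tumour-associated against inflamed fibroblasts in 26 (0.95 to 1.40) and against normal in 24 (0.43 to 1.02). The causes were not tested. The count of called members in inflamed against normal was 0, and became 1 with array weights (Ctsl, adjusted p = 0.0384); leaving out 1 array gave 0 to 1. In tumour-associated against normal it was 1, became 0 with the probe set of largest variance (Ctsb 0.43, adjusted p = 0.280) or the replicate block in only the 2 groups (Ctsb 0.79, adjusted p = 0.0563), and 2 with only the 2 groups compared (Ctsh added, adjusted p = 0.0489); leaving out 1 array gave 1 to 1. In tumour-associated against inflamed it was 2, and became 1 with values as deposited, every probe set tested, no cross-matching probe sets, the probe set of largest variance, dim genes left out, only the 2 groups compared, spike level as covariate, an adjusted p under 0.01, the replicate block (Ctsl 0.74, adjusted p = 0.0717), or the replicate block in only the 2 groups (0.120). It became 4 when arrays were shifted by the mean of 43 ribosomal protein genes (Ctsk, Ctsb, Ctsl and Ctss) and 3 with array weights; leaving out 1 array gave 1 to 2. Without inflamed array 3, tumour-associated array 4 and normal array 4 it was 2, Ctsb and Ctsz (0.61).

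The ribosomal shift moved the median of all genes to −0.27 for inflamed and 0.27 for tumour-associated fibroblasts, each against normal, and 0.53 for tumour-associated fibroblasts against inflamed, otherwise −0.09, 0.04 and 0.12, and the share of higher calls to 29.0%, 72.1% and 91.8%, otherwise 48.5%, 50.3% and 54.7%. Over the alternatives, in the same order, the genes called numbered 0 to 839, 710 to 2300 and 306 to 3917. The 0 arose in limma with the spike covariate, without inflamed array 1, inflamed array 2 or normal array 1, at an adjusted p under 0.01, and with the replicate block in 2 groups, with 2218, 2222, 1967, 2358, 2837 and 3300 genes at an unadjusted p under 0.05.

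Signs turned in 23 uncalled values. With the probe set of largest variance, Ctsl was 0.30 and Ctsc −0.34 in inflamed against normal; Ctsl was 0.51, Ctsz −0.55 and Ctsc −0.92 in tumour-associated against normal; and Ctsz was −0.34 and Ctsc −0.59 in tumour-associated against inflamed. Without cross-matching probe sets Ctsl was 0.30 and 0.51 against normal. With the spike covariate Ctsc was −0.27 in inflamed and Ctsl 0.011 in tumour-associated against normal. The ribosomal shift put Ctsl at 0.23, and array weights put Ctss at −0.12, in tumour-associated against normal. Leaving out 1 array gave −0.035 to 0.549 for Ctsc in inflamed against normal, −0.103 to 0.067 for Ctsl, −0.36 to 0.45 for Ctss and −0.464 to 0.015 for Ctsd in tumour-associated against normal, and −0.11 to 0.38 for Ctsh in tumour-associated against inflamed. Without the 3 named arrays Ctss was −0.33 and Ctsd 0.014 in tumour-associated against normal.

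Of 53 calls of named list genes, 28 were kept whichever array was left out and 25 were not. The ribosomal shift ended those of Lrp1, Atp6v0b, Flcn and Abcc9 against normal and of Ddr1, Sorl1, Tpcn1 and Ifi30 against inflamed. Deviations of same-numbered arrays correlated at −0.094 to 0.177 over 12 pairs, not all above 0.1, so numbers were not taken as pairs. Between tumour-associated and normal arrays the correlations were 0.00, 0.083, 0.161 and 0.177 for numbers 1 to 4, and spike levels had the same order by number (10.99, 10.56, 9.83 and 12.57, against 10.39, 10.20, 9.27 and 12.29).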
